A study of Saccharomyces cerevisiae with 12 samples.

Results

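The 250 windows described here are 25 kb stretches of yeast chromosome arms. Their normalised DNA signal, which is relative to the median window, stood furthest above log phase in aged mother cells. They were chosen by the mean of 8 log2 ratios, each of an aged library (24 h or 48 h) to its own genotype's log phase DNA, among 1507 arm windows of the 2441 windows in the deposited table. An arm window had its midpoint over 50 kb from both chromosome ends and over 50 kb from the centromere of 1 of 11 chromosomes (II, IV, V, VII, VIII, X, XI, XIII, XIV, XV and XVI). The other 1257 arm windows serve as the comparison. Because the ratios to log phase chose the windows, every such ratio below is a description and carries no test.

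The study sequenced genomic DNA of diploid mother enrichment program strains sampled at log phase, 24 h and 48 h, to ask whether DNA from the right arm of chromosome XII accumulates with age, as gene expression there had prompted. The groups were spt3, rad52 and sac3 mutants and wild type, with 12 libraries in all and 1 per group, so that no single value has a replicate. The labels give no alleles. The strain list of the study has homozygous spt3::TRP1, rad52::TRP1 and sac3::TRP1 mutants without fluorescent tags. It also has tagged strains of these genotypes with other markers, and which strains were sequenced is not stated. All strains, wild type included, carried Cre-EBD78 under the SCW11 promoter at the HO locus (hoΔ::SCW11pr-Cre-EBD78-NatMX), loxP-flanked UBC9 and CDC20 and ade2::hisG. In the aged cultures of all strains the daughters were disabled with estradiol. For wild type and the 3 mutants without tags the list further gives his3, leu2, ura3Δ0 and trp1Δ63 and heterozygous lys2/+ and met15Δ::ADE2/+. The rad52 libraries nevertheless differed from the others at LYS2, as described below. For the 24 h and 48 h samples, cells were labelled with biotin and the aged mothers recovered on streptavidin beads. The log phase samples were taken from the starting culture, without estradiol and without this labelling and purification. Every ratio of aged to log phase therefore also compares purified, estradiol-treated mothers with an unpurified, untreated culture. Age, estradiol and purification cannot be told apart. By the methods of the study, estradiol was added later to sac3 than to spt3 and wild-type cultures and latest to rad52 cultures. The SCW11 promoter drives Cre in daughter cells, and each library pools many cells.

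As background, a DNA sequence can gain share in a population of cells by being copied ahead of the rest of the genome, by extra copies, or by the loss of other sequences. In budding yeast replication starts at origins, short AT-rich sequences bound by the origin recognition complex, and proceeds outwards. Spt3 is a subunit of the SAGA transcription coactivator, Sac3 is the scaffold of the TREX-2 complex at the nuclear pore, and Rad52 is needed for homologous recombination. The mother enrichment program is a standard source of old yeast mothers, in which circles cut from the ribosomal DNA are the best known change in DNA content.

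The 10 highest regions had more G and C at their summit than in the 5 kb on either side, as had 26 of all 33 regions. The highest region held an annotated origin 6.99 kb from the middle of its summit. The 3 highest regions are therefore shown by the R64 reference sequence (RefSeq) of a 150-base stretch of the summit, the 5 kb with the highest mean ratio, and of a stretch lying 10 kb to its right, each picked for a G and C content close to that of its 5 kb. Capitals mark G and C, and all are the forward strand, 5′ to 3′. On chromosome V the summit held 45.4% G and C and the 5 kb lying 10 kb to the right 39.9%, on VII they held 44.3% and 39.1%, and on X they held 39.1% and 39.5%, with 38.3% and 37.4% in the 5 kb next to the summit on its left and right.
Summit on V, chrV:474801-474950: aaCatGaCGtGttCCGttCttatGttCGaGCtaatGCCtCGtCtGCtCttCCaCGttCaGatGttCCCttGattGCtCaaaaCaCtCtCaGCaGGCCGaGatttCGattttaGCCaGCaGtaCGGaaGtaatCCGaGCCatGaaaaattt
Right of it on V, chrV:483901-484050: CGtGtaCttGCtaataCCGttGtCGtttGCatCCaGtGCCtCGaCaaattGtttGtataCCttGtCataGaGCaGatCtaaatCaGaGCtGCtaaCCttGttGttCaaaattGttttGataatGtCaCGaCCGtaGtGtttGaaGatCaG
Summit on VII, chrVII:270001-270150: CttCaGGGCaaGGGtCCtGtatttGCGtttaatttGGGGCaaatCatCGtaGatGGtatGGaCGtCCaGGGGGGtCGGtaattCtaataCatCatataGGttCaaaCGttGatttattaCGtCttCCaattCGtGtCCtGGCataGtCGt
Right of it on VII, chrVII:280301-280450: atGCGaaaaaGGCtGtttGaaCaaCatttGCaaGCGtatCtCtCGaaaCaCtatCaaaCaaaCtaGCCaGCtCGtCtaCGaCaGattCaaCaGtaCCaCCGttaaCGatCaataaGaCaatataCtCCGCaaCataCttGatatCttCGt
Summit on X, chrX:648751-648900: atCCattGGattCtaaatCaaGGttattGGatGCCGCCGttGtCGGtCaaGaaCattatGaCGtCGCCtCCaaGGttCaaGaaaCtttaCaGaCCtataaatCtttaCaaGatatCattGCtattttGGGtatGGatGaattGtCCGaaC
Right of it on X, chrX:655451-655600: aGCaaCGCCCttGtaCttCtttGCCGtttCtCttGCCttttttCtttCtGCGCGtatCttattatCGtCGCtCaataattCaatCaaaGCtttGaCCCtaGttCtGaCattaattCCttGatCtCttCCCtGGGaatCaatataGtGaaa
The origin ARS1020 lies 6.99 kb from the middle of the summit on X and is shown because it holds the 11-letter ARS consensus sequence, in capitals, on the reverse strand. Over the 263 annotated origins of the 11 chromosomes 34.2% held an exact match on either strand. ARS434 and ARS1516, which lie closer to a summit at 1.16 and 4.03 kb, held none. Of all 33 summits 21.2% lay within 5 kb of an origin, against 23.7% of the 5 kb stretches of the arms.
ARS1020, chrX:654375-654614: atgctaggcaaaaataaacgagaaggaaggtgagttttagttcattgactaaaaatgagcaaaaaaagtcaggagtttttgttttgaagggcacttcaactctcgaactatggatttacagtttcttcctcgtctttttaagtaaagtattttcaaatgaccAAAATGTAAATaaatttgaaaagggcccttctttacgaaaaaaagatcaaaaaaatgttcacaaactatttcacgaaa

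The values are read counts per window multiplied by a size factor for each library. The median full-length nuclear window had a signal between 12626 and 12897 in all libraries and held 7524 to 21605 reads. A window among the 250 held a median of 12242 to 27186 reads, which is a counting error of 0.607% to 0.904%. Neighbouring windows overlap, so the 250 windows merged into 33 regions that together span 1910 kb. The windows could be resolved into 5 kb bins by subtraction, a step chosen after the data had been seen, with a counting error of 1.54% to 2.63% in the median bin. In these bins the deleted genes were checked. SAC3, which fills most of its bin, had 0.389, 0.427 and 0.341 of the wild-type signal at log phase, 24 h and 48 h in the sac3 mutant, where full absence would give 0.375. RAD52 had 0.768, 0.736 and 0.725 in the rad52 mutant (0.717 for full absence) and SPT3 had 0.777, 0.872 and 0.842 in the spt3 mutant (0.797 for full absence). The mutants that keep the gene had 0.922 to 1.09 at SAC3 and 0.919 to 1.09 at RAD52. At SPT3 they had 0.793 to 0.978, so the SPT3 bin does not separate the aged spt3 libraries from the other mutants. It lies inside a region described below in which rad52 libraries had low ratios to log phase. The libraries labelled rad52 differed from the rest at LYS2 (below), and without them 240 of the 250 windows were still among the 250 highest, with a median mean log2 ratio of 0.33 in place of 0.28.

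The 250 windows had median ratios to log phase, 24 h before 48 h, of 1.35 and 1.33 in spt3 cells, 1.13 and 1.05 in rad52 cells, 1.09 and 1.38 in sac3 cells, and 1.20 and 1.26 in wild type. The other arm windows had medians between 0.973 and 1.01 in the same 8 libraries. The size of the departure thus differed between libraries, and it was small in both rad52 libraries and in the sac3 library at 24 h. A change in some cells and a smaller change in all cells cannot be told apart in such bulk libraries, and the cause of the ratios was not tested. Every one of the 250 windows stood above log phase in both spt3 libraries, both wild-type libraries and the sac3 library at 48 h. The rad52 libraries had 249 of them above log phase at 24 h and 205 at 48 h, and the sac3 library at 24 h had 241. All 8 libraries were above log phase in 200 of the 250 windows (80%), against 82 of the 1257 other arm windows (6.52%).

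**Figure D1:**
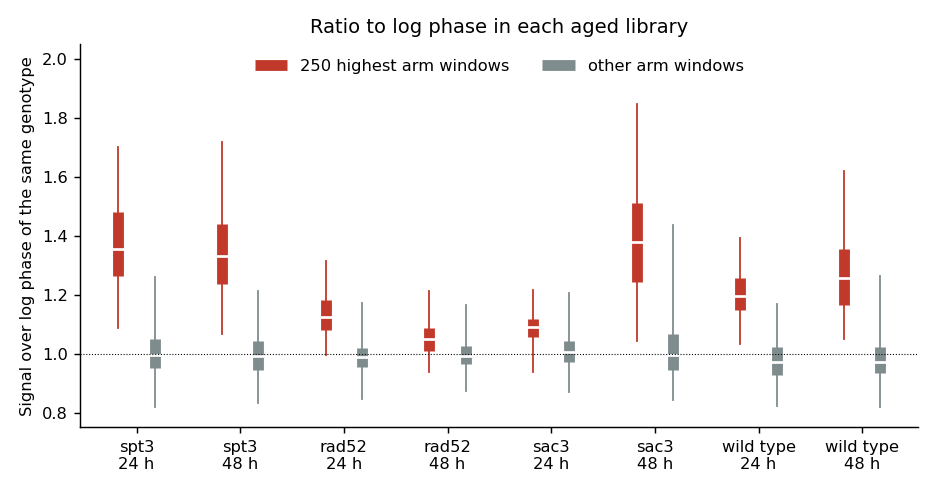
Ratio of the signal in each aged library to that genotype's log phase signal, for the 250 highest and the other arm windows; thick bars span the quartiles, thin lines the whole range, and white marks are medians. The medians of the 250 windows lie between 1.05 (rad52 at 48 h) and 1.38 (sac3 at 48 h), and those of the other windows between 0.973 and 1.01.

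Over windows the mean of the 8 log2 ratios ran between 0.15 and 0.54 in the 250 and between -0.18 and 0.15 in the others. The boundary fell inside a continuous range. The last 3 windows inside it, which start at 340001 on V, 285001 on XI and 900001 on IV, had geometric mean ratios of 1.108, 1.108 and 1.107. The first 3 outside it, which start at 1015001 and 990001 on XV and at 660001 on II, had 1.107, 1.106 and 1.105. Across the 1507 arm windows the log2 ratios of libraries of different genotypes, which share no library, correlated with r between 0.32 (rad52 at 48 h with wild type at 24 h) and 0.94 (spt3 and wild type at 48 h), with a median of 0.75 over 24 pairs. The windows overlap, so this describes the profiles and carries no test.

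The highest of the 33 regions was a 75 kb stretch of chromosome X (605001 to 680000), with RPL43B as its first and TTI2 as its last whole protein-coding gene. Its highest window (630001 to 655000) had signals at log phase, 24 h and 48 h of 17345, 29273 and 28508 in spt3, 16889, 22190 and 20471 in rad52, 17192, 20017 and 30583 in sac3, and 18169, 25051 and 28346 in wild type. All 8 aged libraries were above the log library of their genotype, with ratios between 1.16 (sac3 at 24 h) and 1.78 (sac3 at 48 h) and a geometric mean of 1.45. Its summit held ATP2, the beta subunit of the mitochondrial ATP synthase, and JHD2, a histone H3 demethylase, both named for their position only. SOD1, the copper and zinc superoxide dismutase, lay in the same region.

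On chromosome V the region 435001 to 505000, from YER134C to GCG1, was nearly as high. Its window 460001 to 485000 had signals of 16378, 27623 and 27945 in spt3, 16877, 22129 and 19884 in rad52, 16437, 19917 and 27727 in sac3, and 17311, 23939 and 27085 in wild type at log phase, 24 h and 48 h. The spt3 mutant had the 2 ratios closest together, 1.69 at 24 h and 1.71 at 48 h, and the rad52 mutant had 1.31 and 1.18. FTR1, the high-affinity iron permease, and SCC4, a subunit of the cohesin loader, lay in a 5 kb bin with a geometric mean ratio of 1.51.

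A stretch of chromosome VII (240001 to 320000, from YGL140C to USE1) came next, and its window 270001 to 295000 had signals of 18241, 30320 and 29292 in spt3, 17771, 22937 and 20696 in rad52, 17352, 20252 and 31025 in sac3, and 18865, 25780 and 29073 in wild type in the same order of times. This was also the window with the highest mean level at 48 h among the 10 regions described here, 2.19 times the library median. CDC20, the activator of the anaphase-promoting complex that carries loxP sites in every strain here, lay in a bin with a geometric mean ratio of 1.46. SLD3, an origin firing factor, and TAF6, shared by SAGA and TFIID, lay together in a bin with 1.29.

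The fourth region was on chromosome IV (1235001 to 1315000, from YRA1 to ARO80). Its window 1265001 to 1290000, which does not include SPT3, had signals of 15796, 26541 and 25313 in spt3, 16616, 20441 and 18276 in rad52, 15837, 18603 and 28346 in sac3, and 16645, 22124 and 24950 in wild type. The rad52 ratios, 1.23 at 24 h and 1.10 at 48 h, were below the wild-type ratio of 1.33 at 24 h, which was the lower of the wild-type pair. The sporulation genes DIT1 and DIT2, which make the dityrosine of the spore wall, were in bins with geometric mean ratios of 1.54 and 1.39. MUS81, a DNA structure-specific endonuclease subunit, and SPT3 itself were further from the summit and had 1.15 and 1.19; the SPT3 value includes the spt3 mutant, whose ratio compares 2 libraries that both lack the gene.

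A further region on VII (595001 to 655000, from YGR054W to PDC6) had signals of 16250, 26481 and 26230 in spt3, 17396, 20658 and 18916 in rad52, 16630, 18744 and 27596 in sac3, and 17084, 23470 and 27655 in wild type in its window 610001 to 635000. It held the 5 kb bin with the highest wild-type level at 48 h among the 10 summits, 3.34 times the library median, where the spt3, rad52 and sac3 libraries at 48 h had 2.50, 1.84 and 2.61. That bin holds ROM1, which encodes a Rho1 exchange factor, and ART5, an arrestin-related gene. The region holds no annotated origin.

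Chromosome XV had 2 of the 10 highest regions. The first (530001 to 605000, from YOR111W to THI80) includes ADE2, which is disrupted in these strains, and its window 550001 to 575000 had signals of 13958, 22695 and 22562 in spt3, 15866, 19657 and 18086 in rad52, 14873, 17055 and 22732 in sac3, and 14778, 19460 and 22296 in wild type. Its level at log phase, 1.18 times the library median, was the lowest of the 10 highest windows. The other (445001 to 510000, from YNG1 to YOR097C) had 16481, 25894 and 25197 in spt3, 16825, 20469 and 18771 in rad52, 16263, 19105 and 25819 in sac3, and 17450, 23234 and 24454 in wild type in its window 470001 to 495000, with WHI5, the repressor of the G1/S transition, at its summit. In both windows the sac3 ratio at 24 h lay between the 2 rad52 ratios, while at 48 h it stood at 1.53 and 1.59, above both wild-type ratios.

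The 2 regions on chromosome XI were 205001 to 310000, from YPK1 to YKL068W-A, and 40001 to 100000, from STE6 to LOT5. Window 265001 to 290000 of the longer region had signals of 17154, 27290 and 26807 in spt3, 17285, 20843 and 19018 in rad52, 17054, 19107 and 31164 in sac3, and 17990, 23581 and 26099 in wild type. It lay by MIF2, the yeast CENP-C protein, and MDH1, the mitochondrial malate dehydrogenase, and the same region holds HAP4, an activator of respiratory genes, in a bin with a geometric mean ratio of 1.36. Window 55001 to 80000 of the shorter region had 16641, 25505 and 25292 in spt3, 17152, 20424 and 18406 in rad52, 16426, 18491 and 27586 in sac3, and 17761, 22675 and 24705 in wild type. The sac3 ratios at 48 h, 1.83 and 1.68, were the highest of the 8 in both windows.

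The remaining region of the 10 was on chromosome XVI (615001 to 680000, from ATH1 to YPR064W). Its window 635001 to 660000 had signals of 16788, 25188 and 24583 in spt3, 16482, 20104 and 18203 in rad52, 17327, 20206 and 31980 in sac3, and 17033, 22226 and 24175 in wild type. The sac3 library at 48 h stood at 1.85 times log phase there, the highest single ratio among the 250 windows. VMA13, a subunit of the vacuolar proton pump, and TIF5, the initiation factor eIF5, lay at the summit. Across the highest windows of these 10 regions the ratios ran between 1.07 and 1.85, and none of the 80 lay below log phase.

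**Figure D2:**
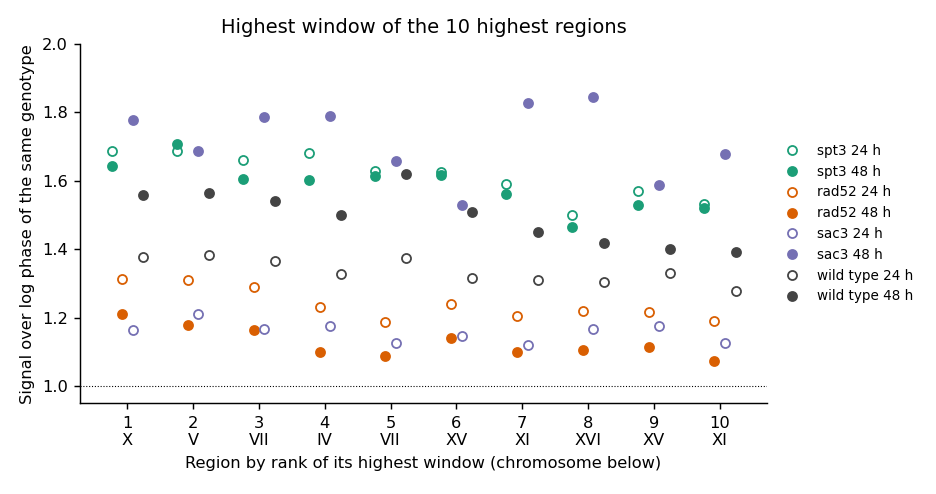
Ratio of each aged library to its genotype's log phase signal in the highest window of the 10 highest regions, ordered by rank; open points are 24 h and filled points 48 h, 1 library each. In each of the 10 regions both spt3 points, the wild-type points and the sac3 point at 48 h lie above both rad52 points of the same region and above the sac3 point at 24 h.

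The 5 kb bins showed the shape of these regions. Averaged over the 10 regions and centred on the summit bin, the level relative to the library median at log phase, 24 h and 48 h came to 1.31, 2.41 and 2.40 for spt3, 1.35, 1.90 and 1.69 for rad52, 1.32, 1.65 and 2.53 for sac3, and 1.39, 2.09 and 2.51 for wild type. At a distance of 25 kb the levels at 48 h were 1.35 and 1.32 to the left and right in spt3 cells, 1.19 and 1.18 in rad52, 1.42 and 1.41 in sac3, and 1.31 and 1.31 in wild type. At 50 kb every aged library lay between 0.977 and 1.07. Every aged profile was highest at the summit bin. A lower rise was present at log phase, where the mean over genotypes was 1.34 at the summit and 1.39 in the bin 5 kb to its left. The stretch with at least 50% of the summit's mean log2 ratio had a median width of 25 kb in the 10 regions (15 to 40 kb). The summits were placed by the ratio itself, so these profiles are descriptions.

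**Figure D3:**
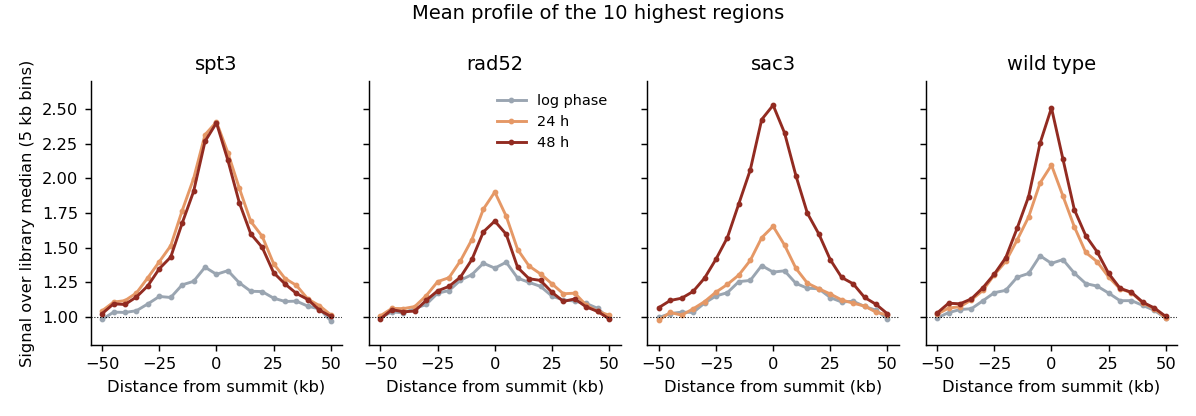
Mean level over the 10 highest regions in 5 kb bins, as signal over the library median, against the distance from the summit bin, for each genotype at log phase, 24 h and 48 h. The log phase curves reach 1.31 to 1.39 at the summit, the 48 h curves 2.40 in spt3, 1.69 in rad52, 2.53 in sac3 and 2.51 in wild type, and all lie near 1 at 50 kb.

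The same windows were already above the library median at log phase. Their level, averaged over the 4 genotypes, had a median of 1.28 (0.928 to 1.45), against 0.957 (0.727 to 1.74) in the other arm windows, and 248 of the 250 were above 1. Both exceptions were neighbouring windows of chromosome XVI, starting at 120001 and 125001, with levels of 0.9896 and 0.9277. At 24 h the median levels were 1.53 in the 250 and 0.955 in the others, and at 48 h they were 1.61 and 0.962. When the 1507 arm windows were ordered by their level at log phase into 10 equal groups, the highest group had 120 of its 151 windows among the 250 (79.5%), the next had 75 of 151 (49.7%), and the 3 lowest groups had 0.

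Across the 1507 arm windows the level at log phase correlated with the mean log2 ratio with r = 0.70, and within the 250 with r = 0.36. The log phase signal is the denominator of every ratio, so the 2 measures share libraries. A high level at log phase was not always followed by a high ratio. The 5 arm windows with the highest log phase levels, 1.49 to 1.74, lay on chromosome VIII between 190001 and 235000, overlap the CUP1 metallothionein genes and had geometric mean ratios of 0.918 to 0.961. A stretch of VII starting at 395001 to 405001 had levels of 1.35 to 1.37 and geometric mean ratios of only 1.04 to 1.05.

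**Figure D4:**
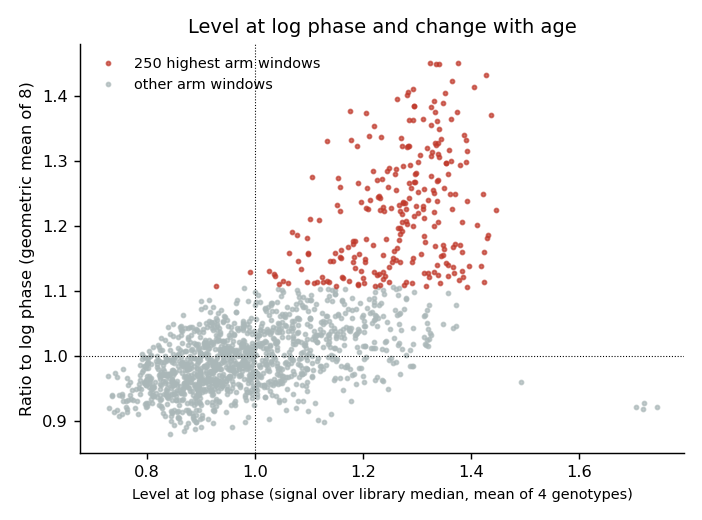
Geometric mean of the 8 ratios to log phase against the level at log phase (signal over the library median, mean of 4 genotypes) for 1507 arm windows, 1 point each. The 250 highest windows lie at levels of 0.928 to 1.45, and the points at levels of 1.49 to 1.74 with ratios below 1 are windows at CUP1.

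The 250 windows were unevenly spread. They made up 29.0% of the arm windows of chromosome XI, 27.5% of XV, 25.3% of V and 23.6% of II, but 5.13% of XIV and 1.37% of VIII, against 16.6% over all 11 chromosomes. Chromosome VIII had a single window, starting at 170001, and its first whole gene was RRM3, a DNA helicase that helps forks through protein barriers. Neighbouring windows enter together, so these shares rest on 33 regions, between 1 and 7 on each chromosome.

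**Figure D5:**
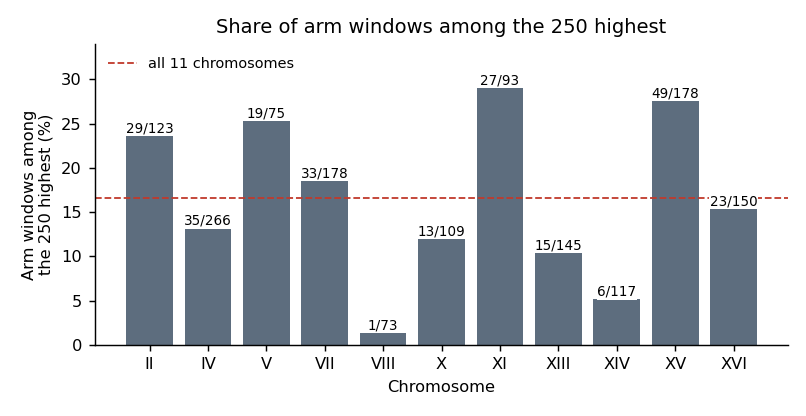
Percentage of the arm windows of each chromosome that were among the 250 highest, with the counts above the bars and the share over all 11 chromosomes (16.6%) as a dashed line. Chromosomes XI and XV reach 29.0% and 27.5%, and VIII has 1 window of 73.

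Annotated features were compared with those of the other arm windows. The 250 windows held 0.620 annotated origins each, against 0.639 in the others, and 52.8% against 53.3% held at least 1. Their midpoints lay a median of 11.5 kb from the nearest origin, against 11.6 kb. Of the 33 summits, 7 (21.2%) lay within 5 kb of an origin, against 23.7% of the 1507 arm bins. ARS434, on chromosome IV, was nearest to a summit of the 10 highest regions, at 1.16 kb, and ARS1109 was furthest from one, at 52.3 kb. An exact match to the ARS consensus sequence was found in 81.2% of the 250 windows and in 75.9% of the others. The difference of -0.0188 origins per window was -0.105 without windows touching Ty elements, long terminal repeats, ENA or CUP1, and -0.0863 when the 500 highest windows were taken.

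Protein-coding genes numbered 12.7 per window in both sets, and tRNA genes 0.616 and 0.570. Ty elements or long terminal repeats touched 30.4% of the 250 windows and 31.2% of the others. The median distance to the centromere was 229.5 kb in the 250 and 256.5 kb in the others. Mean G and C content was 38.6% and 38.1%, and when the arm windows were put in 4 groups by G and C content the richest group had 29.4% of its 377 windows among the 250 and the poorest 8.16% of its 380. At the summit bins of the 33 regions the median was 42.0%, against 37.9% in the bins on either side. The summit bin was richer in G and C than both of its neighbours in 26 of the 33 regions, among them all 10 of the highest. Across the 1507 arm bins the correlation of log2 signal with G and C content was between -0.10 and -0.06 in the 4 log phase libraries and between 0.05 and 0.15 in the 8 aged ones. The choice of windows was repeated after each library was corrected for the G and C content of the 25 kb windows. After that correction 230 of the 250 windows were still among the 250 highest, with a median mean log2 ratio of 0.27 in place of 0.28. The difference in mean G and C content was then 0.264 percentage points in place of 0.521. The correction did not use the content of the 5 kb bins, and the part of base composition in the ratios was not tested.

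Of 4032 protein-coding genes lying whole in an arm window, 950 (23.6%) lay whole in 1 of the 250 windows. Ribosomal protein genes were there in 20 of 104 cases (19.2%), and replication initiation genes in 4 of 24 (MCM2, a helicase subunit, ORC4, of the origin recognition complex, SLD2 and SLD3). Genes of ageing and rDNA stability were there in 8 of 30 cases (26.7%): GPA2, HAP4, HST4, MUS81, RRM3, SIR4, SOD1 and UTH1. Cohesin and condensin genes (PDS5, SCC4 and SMC5) and iron regulon genes (FET3, FTR1 and MRS4) were there in 3 of 11 cases each, SAGA and TREX-2 genes (SPT3, SUS1 and TAF6) in 3 of 21, and sporulation genes (DIT1, DIT2, SMK1, SPO21 and UME6) in 5 of 34. These shares describe position, since neighbouring genes enter with the same region.

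Of the 7 loci altered in these strains that lay in arm windows, 4 lay in the 250 windows: HO, ADE2, CDC20 and LYS2. In wild type the 5 kb bin of HO had a level of 0.551, 0.833 and 1.02 at log phase, 24 h and 48 h, and CDC20 had 1.56, 2.25 and 2.69. At log phase the HO bin lay between 0.551 and 0.572 in all 4 genotypes, below the library median, although it belongs to a region chosen for a high ratio. LYS2, the alpha-aminoadipate reductase gene, set the rad52 strain apart. Its bin had a log phase level of 1.17 in rad52 cells, against 0.688 in spt3, 0.720 in sac3 and 0.729 in wild type. At the bin of ADE2, an adenine biosynthesis gene, the log phase levels were 1.07 in spt3, 1.30 in rad52, 1.08 in sac3 and 1.13 in wild type. The libraries labelled rad52 thus lacked the low LYS2 level of the other strains, although the strain list of the study gives lys2/+ for all 4 genotypes in the strains without tags. The part of the altered alleles in these levels was not tested.

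The measures tested were differences between the libraries that chose the windows, not the mean of their ratios. They are not independent of the choice where libraries differ in spread. Ratios of the 250 reached 1.85 in sac3 at 48 h and 1.21 in rad52 at 48 h. Counts of direction and of calls among the 250 are therefore descriptions. The first measure was the difference between the aged time points. In a limma fit to log2(signal + 1) of the 8 aged libraries with genotype as a block, 48 h minus 24 h was positive in 236 of the 250 windows, with a median log2 difference of 0.07, against 0.01 over all 2423 nuclear windows. It was positive in 1409 of the 2423 nuclear windows and in 913 of the 1507 arm windows. None of the windows was called at a Benjamini-Hochberg adjusted p under 0.05, 0 of 250 and 0 of 2423 (0%), and at an unadjusted p under 0.05 there were 0 of 250 and 7 of 2423. The lowest adjusted p among the 250 was 0.991. The window of VII starting at 605001 had the lowest unadjusted p among the 250, 0.224 in limma, with a log2 difference of 0.15 (SE 0.11). The direction rested on the sac3 mutant: without its libraries the median was -0.02 and 35 of 250 windows were positive, and without the rad52 libraries it was 0.13 with 249 positive. Of the 1507 arm windows 703 and 852 were positive in these fits.

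The second measure was the difference between genotypes in the ratio to log phase. The limma F test over the 8 log2 ratios called 70 of 2423 nuclear windows (2.89%), 0 of the 1507 arm windows and 0 of the 250. At an unadjusted p under 0.05 there were 550 of 2423, 337 of 1507 and 45 of 250. For spt3 minus wild type the median log2 difference was 0.13, positive in 247 of the 250, against 0.06 and 1136 of the 1507 arm windows. For rad52 minus wild type it was -0.18, positive in 4 and negative in 246, against 0.01 and 801 of 1507 positive. For sac3 minus wild type it was -0.02, positive in 91, against 0.03 and 993 of 1507. Each of these contrasts called 8 of 2423 windows (0.330%), all lower in the mutant, with 0 of them among the 1507 arm windows and the 250. At an unadjusted p under 0.05 there were 1, 31 and 2 of the 250. Over the 1507 arm windows there were 174, 285 and 225, and over the 2423 nuclear windows 262, 486 and 386. The spread in these tests was that between the 24 h and 48 h ratios of a genotype, taken as its replicates. These ratios also share 1 log phase library whose error the tests do not include, so the p-values can be too small.

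The counts changed when the sac3 mutant, whose ratios at 24 h and 48 h lay far apart, was left out. Without it the F test called 233 of the 250 windows, against 1150 of 2423 nuclear windows (47.5%). In the contrasts of that fit, 9 of the 250 were called higher in spt3 than in wild type, against 60 of all (2.48%), and 21 were called lower in rad52 than in wild type, against 49 of all (2.02%). When all 12 libraries entered as samples, a fit added after the data had been seen, so that the error of the log phase libraries counted, 0 of 2423 windows and 0 of the 250 were called by the F test, both with the sac3 mutant (107 and 0 at an unadjusted p under 0.05) and without it (600 and 199). The differences between genotypes in the 250 windows therefore did not pass in the fit that includes this error. Its size was taken from the spread between 24 h and 48 h, since no genotype has a replicate at log phase.

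The 5 regions with the smallest p for a genotype difference were 340001 to 365000 and 175001 to 220000 on XIV, 1235001 to 1315000 on IV, 530001 to 605000 on XV and 745001 to 830000 on VII. The first, from IGO1 to YNL140C, had signals at log phase, 24 h and 48 h of 16028, 18686 and 19193 in spt3, 16225, 16661 and 15614 in rad52, 15813, 17116 and 16508 in sac3, and 16447, 19409 and 20534 in wild type. The ratios were 1.17 and 1.20 in spt3, 1.03 and 0.962 in rad52, 1.08 and 1.04 in sac3, and 1.18 and 1.25 in wild type. Those of spt3 and wild type lay above those of rad52 and sac3 without overlap. The region was picked for its small p in these same ratios, so this separation is a description. Its limma F test had an adjusted p of 0.0899, and rad52 minus wild type was -0.29 (SE 0.05, limma adjusted p 0.0906).

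The second region on XIV, from RAD50 to ELA1, had ratios in its window at 195001 of 1.22 and 1.24 in spt3, 1.04 and 0.955 in rad52, 1.10 and 1.14 in sac3, and 1.14 and 1.17 in wild type at 24 h and 48 h (limma F, adjusted p 0.121). RAD50, a subunit of the Mre11 complex that binds broken DNA ends, lies at its left edge, in a bin with a geometric mean ratio of 0.988. The windows with the smallest p on IV, XV and VII had limma adjusted p-values of 0.134, 0.163 and 0.176. In each of these 3 windows both rad52 ratios were below both wild-type ratios, the highest rad52 ratios being 1.09, 1.12 and 1.11. The windows were picked for a small p in these same ratios, so this order is a description. Over all 250 windows rad52 minus wild type was positive in 4.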

How the data were processed

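The authors deposited 1 table of signal, read counts per 25 kb window placed every 5 kb and multiplied by a size factor for each library. The labels name Trim Galore 0.6.6, HISAT2 2.1.0 and the R64 build, whereas the methods name Bowtie 2. Duplicate and mapping quality filters are not given in the sources used here. The methods say that windows holding long terminal repeats, Ty elements, ENA or CUP1 were dropped, yet the table has them, and they were kept here, with an alternative that leaves them out. Mapping and base composition act on relative coverage, and a size factor makes every change relative to the median window.

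Ratios of aged to log phase signal were taken per window within a genotype. Tests used limma 3.58.1 (R 4.3.3) on log2(signal + 1) over the 2423 nuclear windows with Benjamini-Hochberg adjustment at 0.05. They were run on simulated data. Where the genotype tests on ratios were checked there for false calls, the log phase libraries had no error. That check therefore does not cover the error of the log phase libraries in those tests. Other steps used Python 3.11.15, numpy 2.4.6, pandas 2.3.3, scipy 1.17.1 and matplotlib 3.10.9. All p-values measure the spread between libraries of different cultures with no replicate. Level is signal over the library median, of nuclear windows for windows and of full-length bins of the 11 chromosomes for bins. Bins of 5 kb were recovered by subtracting overlapping windows. Reads per window come from the step that makes the values whole within 0.1, found over the 60 smallest values, and served only to describe depth. Genes, origins and sequences come from R64 in RefSeq; its chromosomes end where the last windows do. The ARS consensus sequence was searched on both strands with no mismatch. Windows, gene lists and named items were chosen with earlier results of these data known. Named were the 10 highest merged regions, the 5 regions with the smallest p for a genotype difference, the 3 windows on each side of the boundary, their first and last genes, listed genes and genes given for position only. The result of 1 further gene list is not reported here.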

Additional observations from a re-analysis of the deposited data

Results flagged for a closer look

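In 1 of the 250 windows, on chromosome XI (285001 to 310000), both rad52 libraries went in the opposite direction to both spt3 and both wild-type libraries, while the 2 sac3 libraries differed from each other in direction. Signals at log phase, 24 h and 48 h were 15151, 19400 and 18118 in spt3, 15390, 15317 and 14442 in rad52, 15339, 14395 and 21560 in sac3, and 15977, 17408 and 17609 in wild type. Both spt3 libraries were above log phase and both rad52 libraries below, and the geometric mean ratio in spt3 was 1.28 times that in rad52. Both wild-type libraries were above log phase too, and their geometric mean ratio was 1.13 times that in rad52. These differences were not tested by a test of their own. The window was next to last by rank, and its sac3 ratios were 0.938 at 24 h and 1.41 at 48 h. No group was large enough to be searched for libraries that stand apart, since each has 1.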

How the results depend on the processing

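The choice of windows held under the alternatives tried. Of the 250 windows 241 were among the 250 highest by the 24 h ratios alone, 242 by the 48 h ratios alone, 241 by the median of the 8 ratios, 250 after re-centring on the arm windows, 230 after correction for G and C content, 174 without windows touching Ty elements, long terminal repeats, ENA or CUP1 (which leaves 174 of them eligible), and 240 when any genotype was left out. By single libraries it was 116 (rad52 at 48 h) to 235 (spt3 at 48 h). The median mean log2 ratio was between 0.15 (500 highest windows) and 0.39 (100 highest), and 0.23 to 0.33 with 1 genotype left out. The difference in G and C content between the chosen and other windows, 0.521 percentage points, was 0.264 after correction and 0.466 to 0.594 with 1 genotype left out. The difference in origins per window, -0.0188, was -0.105 without the Ty, repeat, ENA and CUP1 windows, -0.0863 for the 500 highest windows, and between -0.0620 and -0.0188 with 1 genotype left out. The highest windows of the 10 named regions kept log2 values of 0.35 to 0.62 in 80 of 80 alternative values.

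Tests of genotype differences depended on the libraries. The F test called 70 nuclear windows, 0 without the Ty, repeat, ENA and CUP1 windows, 0 with all 12 libraries as samples, with or without the sac3 mutant, and 0 to 1150 with 1 genotype left out (0 without spt3, 0 without rad52, 1150 without sac3, 81 without wild type); among the 250 it was 0 to 233. The contrast of spt3 with wild type called 8, 0 without those windows, 0 with all 12 libraries, with or without sac3, and 0 to 256 with 1 genotype left out (256 without sac3, and 0 to 9 among the 250). That of rad52 called 8, 0, 0 and 0 to 156 (156 without sac3, and 0 to 21 among the 250), and that of sac3 called 8, 0, 0 and 0. The fits with all 12 libraries were added after the data had been seen; the cause of the other changes was not tested. The comparison of 48 h with 24 h called 0 windows in every alternative, with the genotype block or without it. Overlap with the 250 highest was not computed for the 100 and 500 highest windows, where the number of windows fixes it. The comparison of 48 h with 24 h was paired by genotype. The genotype contrasts were not paired by time point, so the change between 24 h and 48 h entered their error. No replicate number of the labels names a pair. Each group has 1 library, and depth gives a counting error only.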
